A study of Mus musculus with 9 samples.

Results

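The FGF receptors and their FRS adaptors are a family of 7 genes, chosen here by name among the 46078 gene identifiers of the RNA-seq data. They are the receptor tyrosine kinases Fgfr1, Fgfr2, Fgfr3 and Fgfr4, the receptor without a kinase domain Fgfrl1, and the adaptors Frs2 and Frs3. Expression was measured in EGFP-SSCs, a wild-type mouse line of spermatogonial stem cells (SSCs) that carries green fluorescent protein, with 3 biological replicates at each of 3 times. The 0 h group was the normal culture, in which the line was kept on mitomycin C-treated mouse embryonic fibroblasts in a medium with basic FGF at 10 ng/ml, GDNF at 10 ng/ml and EGF at 20 ng/ml. The 24 h and 48 h groups were the same line after differentiation for that time, grown with testicular somatic cells of busulfan-exposed mice in a medium with retinoic acid, BMP-4 and BMP-7 at 20 ng/ml each, activin A at 100 ng/ml, testosterone, FSH, KSR and BPE. Basic FGF, GDNF and EGF are not listed by name for that medium, and the growth factors that KSR and BPE may carry are not given. Cells with EGFP were then separated from the somatic cells by flow cytometry. The labels name this sort for 24 h and 48 h, and whether the 0 h cells were separated from the feeder fibroblasts in the same way is not stated in them, which bears on the somatic markers at 0 h. All 9 libraries come from 1 cell line, so the p-values below describe the spread between its cultures.

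FGFs are secreted ligands that bind a receptor together with heparan sulfate, a sulfated sugar chain of the cell surface, and some of them need a klotho protein as well. The bound receptors pair and phosphorylate each other, and FRS2 or FRS3, which are anchored at the inner face of the membrane, carry the signal through GRB2, SOS and RAS to the kinase ERK. ERK induces ETS transcription factors such as Etv5 and inhibitors of the same route, the Sprouty and Dusp genes. FGF2 is used beside GDNF to keep SSCs dividing in culture.

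The libraries held 16825251 to 22201892 counts, and levels below are in CPM, counts scaled to a common library total after TMM normalization. Replicates of every group differed by more than sampling noise, and those of 0 h the most. The chi-square per degree of freedom between pairs of libraries was 39.4 to 90.9 at 0 h, 8.69 to 14.7 at 24 h and 7.78 to 28.7 at 48 h. Germ cell markers, a list of 8 genes led by Dazl, summed to 1880 to 2860 CPM in the 0 h libraries, 2150 to 2380 CPM in those of 24 h and 2150 to 2350 CPM in those of 48 h, so the labelled cell type carried its markers at each time. The 12 markers of fibroblasts and stroma reached 760 to 873 CPM in the 0 h libraries, 2640 to 3030 CPM in those of 24 h and 3520 to 3890 CPM in those of 48 h, and in each comparison with 0 h 8 of them were called higher and 1, Twist1, lower. Sertoli cell markers (10 genes) summed to 23.5 to 28.1, 76.3 to 130 and 118 to 133 CPM at the 3 times, peritubular myoid markers (6 genes) to 13.8 to 15.6, 146 to 208 and 263 to 321 CPM, and Leydig cell markers (7 genes) to 4.59 to 7.00, 28.7 to 44.8 and 29.1 to 37.3 CPM. Endothelial markers (6 genes) summed to 43.5 to 47.5, 14.5 to 19.0 and 12.4 to 13.1 CPM, and macrophage markers (6 genes) to 15.5 to 18.3, 6.26 to 10.3 and 6.34 to 9.22 CPM. Among the stromal markers 0 were absent from all libraries of a time, while at 0 h 1 Sertoli, 2 Leydig, 1 endothelial and 1 macrophage marker had no count. The sums of the somatic lists were thus higher after 0 h, apart from those of endothelial cells and macrophages.

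**Figure D1:**
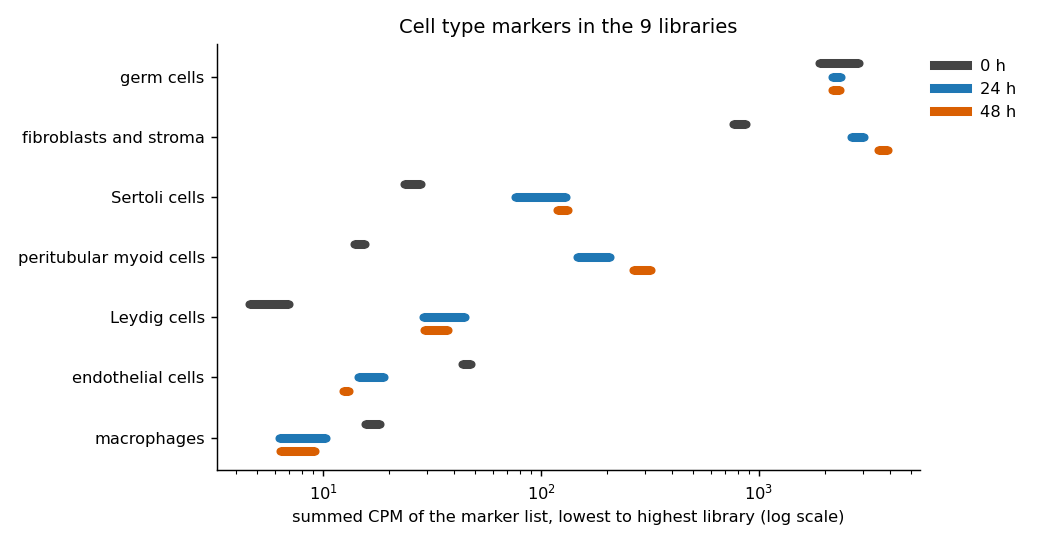
Summed CPM of 7 marker lists in the 9 libraries, on a log axis, with each bar running from the lowest to the highest of the 3 libraries of a time. The germ cell sums overlap between the times, while the stromal sum lies at 760 to 873 CPM at 0 h and at 3520 to 3890 CPM at 48 h.

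In the GRCm38 annotation of GENCODE M21, all 7 are protein-coding genes. Fgfr1 (ENSMUSG00000031565) lies at chr8:25513654-25575718 on the plus strand, Fgfr2 (ENSMUSG00000030849) at chr7:130162451-133123350 on the minus strand, Fgfr3 (ENSMUSG00000054252) at chr5:33721674-33737068 on the plus strand and Fgfr4 (ENSMUSG00000005320) at chr13:55152640-55168759 on the plus strand. Fgfrl1 (ENSMUSG00000008090) lies at chr5:108692382-108706924 on the plus strand, Frs2 (ENSMUSG00000020170) at chr10:117069427-117148534 on the minus strand and Frs3 (ENSMUSG00000023266) at chr17:47689030-47704286 on the plus strand. Near-identical stretches were looked for between the members, and of the 75-base windows of their longest transcripts, 0 matched another member at 97% identity. Of the windows of Frs2, 5.91% matched Galnt1, and of those of Fgfr3, 9.58% matched G630022F23Rik or Nvl. Other genes overlap some of their exons. The opposite-strand gene G630022F23Rik covers 13.94% of the exon bases of Fgfr3, the genes Frs3os and Tomm6os cover 18.48% of those of Frs3, and Fgfr1 and Fgfr2 have 1.66% and 3.04% covered. The library protocol lists no step that marks strand and the strand setting of the counting is not given, so reads on the shared exon bases of Fgfr3 and Frs3 may belong to either gene, and the values of both are uncertain to that extent. Tomm6os lies on the same strand as Frs3.

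Start-site regions of 300 bases, 250 before the start and 50 after it, were taken from RefSeq (build GRCm38.p6) and matched 6 of the 7 genes, all but Fgfr1. The 250 bases before the start are printed for Fgfr4, the member called higher after 0 h, and for Fgfrl1 and Frs2, whose regions hold CCGGAAGT. That motif is bound by the ETS family, and its members Etv4 and Etv5 fell in these cells (values below). Neither Fgfrl1 nor Frs2 was called at 24 h or 48 h against 0 h, and a link between motif and level was not tested. The motif is in capitals, and each sequence runs 5′ to 3′ along the strand of its gene.
Fgfr4, chr13:55152568-55152817, plus strand: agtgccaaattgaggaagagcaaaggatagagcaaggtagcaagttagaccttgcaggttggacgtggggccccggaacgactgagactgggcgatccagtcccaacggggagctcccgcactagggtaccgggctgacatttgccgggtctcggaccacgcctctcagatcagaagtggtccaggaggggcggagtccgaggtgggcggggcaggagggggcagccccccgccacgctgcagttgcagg
Fgfrl1, chr5:108693979-108694228, plus strand: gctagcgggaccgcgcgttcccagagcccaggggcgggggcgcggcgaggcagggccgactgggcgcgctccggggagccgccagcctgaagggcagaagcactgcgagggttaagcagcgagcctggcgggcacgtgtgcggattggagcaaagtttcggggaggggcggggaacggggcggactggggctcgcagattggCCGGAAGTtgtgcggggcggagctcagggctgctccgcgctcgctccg
Frs2, chr10:117148475-117148724, minus strand: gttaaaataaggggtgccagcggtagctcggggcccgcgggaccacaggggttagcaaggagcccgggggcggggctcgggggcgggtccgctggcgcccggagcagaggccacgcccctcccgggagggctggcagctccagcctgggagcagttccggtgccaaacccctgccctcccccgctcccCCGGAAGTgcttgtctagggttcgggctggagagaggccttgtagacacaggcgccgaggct
The motif was searched on both strands in all 300 bases, and 1277 of the 32851 mouse regions (3.89%) hold it. In Fgfrl1 and in Frs2 it lies on the strand of the gene, with its first base at -48 and -62 from the start. The core site AGGTCA of nuclear receptors, a class that includes the retinoic acid receptors, is present in 16.3% of the regions and had no match in those of the 6 genes. The motifs do not overlap each other. A match is a description of letters, and no match says only that these letters are not in the window.

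Between 0 h and 24 h, Fgfr1 fell and Fgfr4 rose, and the other 5 members did not pass the test. The counts of each comparison were tested with edgeR's quasi-likelihood test over the 6 libraries of its groups, with Benjamini-Hochberg adjustment over all genes tested and a threshold of 0.05. All 7 members passed the filter on low counts in every comparison. Called at 24 h were 2 of the 7, beside 25.5% of the 17592 genes tested (11.4% higher, 14.2% lower). The libraries of the groups did not overlap for 4 of the 7, beside 43.4% of all genes tested.

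Fgfr1 encodes a receptor that binds FGF2, the FGF of the SSC medium. It stood at 284, 290 and 332 CPM in the 0 h libraries, 126, 127 and 126 CPM in the 24 h libraries, and 117, 130 and 120 CPM in the 48 h libraries. Every 0 h library lay above 2 times the level of every later library, and the 24 h and 48 h libraries overlapped. The level was 2.37-fold lower at 24 h (log2 fold change -1.24, SE 0.10, adjusted p = 0.000191 in edgeR) and 2.47-fold lower at 48 h (-1.30, SE 0.11, adjusted p = 0.000168). Between 24 h and 48 h the difference was -0.06 on the log2 scale, with a 95% interval of -0.20 to 0.08 (adjusted p = 0.536). The summed stromal markers were higher in every later library than in every 0 h library, with 8 of the 12 called higher and 1, Twist1, lower at each time. The 0 h line was kept on embryonic fibroblasts and the later cultures held testicular somatic cells. The part of somatic cells in the level of Fgfr1 was not tested. In bulk samples, fewer cells of a type and less RNA per cell cannot be told apart.

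Fgfr4, a receptor known for its use of the klotho protein KLB, was the member with the lowest counts, 59 to 168 per library. Its levels were 3.68, 4.87 and 3.79 CPM at 0 h, 8.25, 7.81 and 8.16 CPM at 24 h, and 6.81, 6.78 and 6.23 CPM at 48 h. The 3 groups did not overlap, with the 24 h libraries on top and the 48 h libraries between. The rise was 1.98-fold at 24 h (log2 fold change 0.99, SE 0.18, adjusted p = 0.0069 in edgeR) and 1.61-fold at 48 h (0.68, SE 0.19, adjusted p = 0.0293). The 48 h call was lost when any 48 h library was left out, with adjusted p of 0.104 without replicate 1, 0.098 without replicate 2 and 0.0743 without replicate 3, at differences of 0.66 to 0.73. It was also lost with no expression filter (adjusted p = 0.0699).

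**Figure D2:**
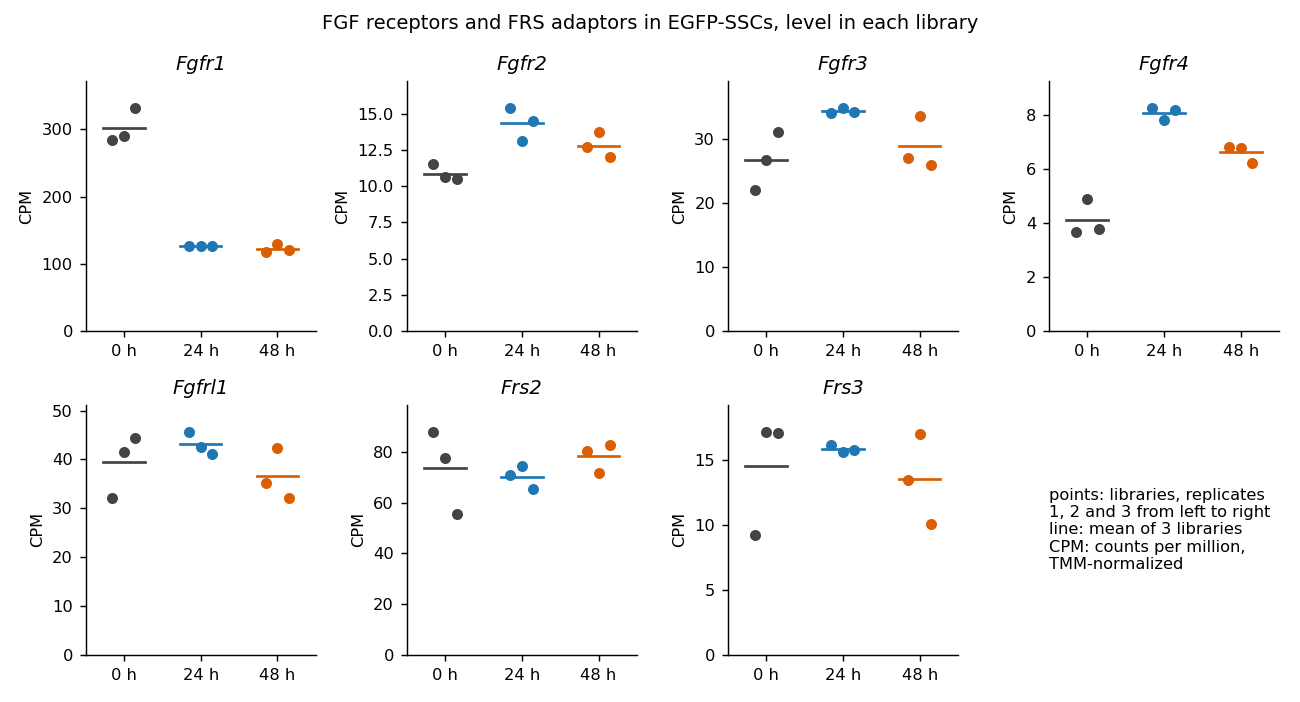
CPM of the 7 genes in each library, with replicates 1, 2 and 3 from left to right within a time, a line at the mean of the 3, and an axis from 0 in every panel. Fgfr1 separates the 0 h libraries (284 to 332 CPM) from the later ones (117 to 130 CPM), Fgfr4 has its highest levels at 24 h, and Frs3 is low in 0 h replicate 1 (9.23 CPM).

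Fgfr2 and Fgfr3, the other kinase receptors, were higher in every 24 h library than in every 0 h library, but neither passed the test. Fgfr2 stood at 11.5, 10.6 and 10.5 CPM at 0 h, 15.4, 13.1 and 14.5 CPM at 24 h, and 12.7, 13.7 and 12 CPM at 48 h. Its difference was 0.41 at 24 h (SE 0.14, adjusted p = 0.0694 in edgeR) and 0.23 at 48 h (SE 0.14, adjusted p = 0.242). Fgfr3 stood at 22.1, 26.8 and 31.2 CPM at 0 h, 34.1, 34.9 and 34.2 CPM at 24 h, and 27.1, 33.6 and 26 CPM at 48 h. At 48 h its libraries overlapped those of 0 h, and the 0 h libraries themselves were spread from 22.1 to 31.2 CPM. Its difference was 0.38 at 24 h (SE 0.14, adjusted p = 0.0948 in edgeR) and 0.12 at 48 h (SE 0.17, adjusted p = 0.653).

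The side of the threshold on which these 2 receptors fell depended on the setting. At 24 h Fgfr3 passed when 0 h replicate 3 was left out (log2 fold change 0.53, adjusted p = 0.0131 in edgeR). With offsets for the GC content and length of the transcripts, Fgfr3 passed at 24 h (0.44, adjusted p = 0.00626) and at 48 h (0.35, adjusted p = 0.0244), and Fgfr2 at 24 h (0.47, adjusted p = 0.0238). Scaling by library size alone, which raised the median of all genes by 0.11 relative to TMM, also took Fgfr2 (0.52) and Fgfr3 (0.49) past the threshold at 24 h. The same scaling moved the share of higher genes among all calls from 44.5% to 57.1% at 24 h and from 41.2% to 52.8% at 48 h.

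Fgfrl1, the receptor without a kinase, and both adaptors did not pass at 24 h or 48 h. Fgfrl1 stood at 32.1, 41.6 and 44.4 CPM at 0 h, 45.7, 42.6 and 41.2 CPM at 24 h, and 35.2, 42.3 and 32.2 CPM at 48 h. The groups overlapped, and its difference was 0.15 at 24 h (95% interval -0.19 to 0.49) and -0.10 at 48 h (-0.49 to 0.29).

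Frs2, the adaptor that links FGF receptors to GRB2 in most tissues, stood at 88.1, 77.7 and 55.5 CPM at 0 h, 71.0, 74.4 and 65.4 CPM at 24 h, and 80.6, 71.6 and 82.8 CPM at 48 h. The 0 h libraries enclosed all later ones. Its difference was -0.06 at 24 h (95% interval -0.48 to 0.36) and 0.09 at 48 h (-0.33 to 0.50), so a change past 1 on the log2 scale in either direction lay outside these intervals.

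Frs3, its close relative, stood at 9.23, 17.2 and 17.1 CPM at 0 h, 16.2, 15.6 and 15.8 CPM at 24 h, and 13.5, 17.0 and 10.1 CPM at 48 h. Its difference was 0.14 at 24 h (95% interval -0.40 to 0.69) and -0.10 at 48 h (-0.78 to 0.58). The 0 h spread of the adaptors came from different libraries: replicate 1 had the highest Frs2 and the lowest Frs3, and replicate 3 the lowest Frs2. The longest transcript of Frs2 holds 45.06% GC and that of Frs3 60.91%, the lowest and the highest among the 7 genes, and the part of base composition in this spread was not tested. The directions of Fgfrl1, Frs2 and Frs3 at 48 h turned under the GC and length offsets, to 0.18, -0.06 and 0.14.

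At 48 h against 0 h the called members were again Fgfr1, lower, and Fgfr4, higher, beside 31.6% of the 17755 genes tested (13.0% higher, 18.5% lower). The libraries did not overlap for 3 of the 7 (Fgfr1, Fgfr2 and Fgfr4), beside 48.3% of all genes. The 2 comparisons share the 0 h libraries. Between 24 h and 48 h, edgeR called 0 of the 7 members and DESeq2 also 0, beside 21.3% of the 17499 genes tested with edgeR (8.61% higher, 12.7% lower). The libraries did not overlap for 2 of the 7 (Fgfr3 and Fgfr4), beside 39.6% of all genes. An unadjusted p under 0.05 was reached by 3 of the 7 in edgeR and by 1 in DESeq2. Those in edgeR were Fgfr3 (-0.26), Fgfr4 (-0.30) and Fgfrl1 (-0.25), with adjusted p of 0.0914, 0.115 and 0.114. The result rests on 48 h replicate 2, which had the highest 48 h level of Fgfr3, Fgfrl1 and Frs3. Without it, edgeR called 3 members lower at 48 h than at 24 h, Fgfr3 (-0.38, adjusted p = 0.00926), Fgfrl1 (-0.37, adjusted p = 0.0147) and Frs3 (-0.44, adjusted p = 0.0421). Calls over all genes also rose without this library, from 3732 to 4356, the most for any library left out.

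**Figure D3:**
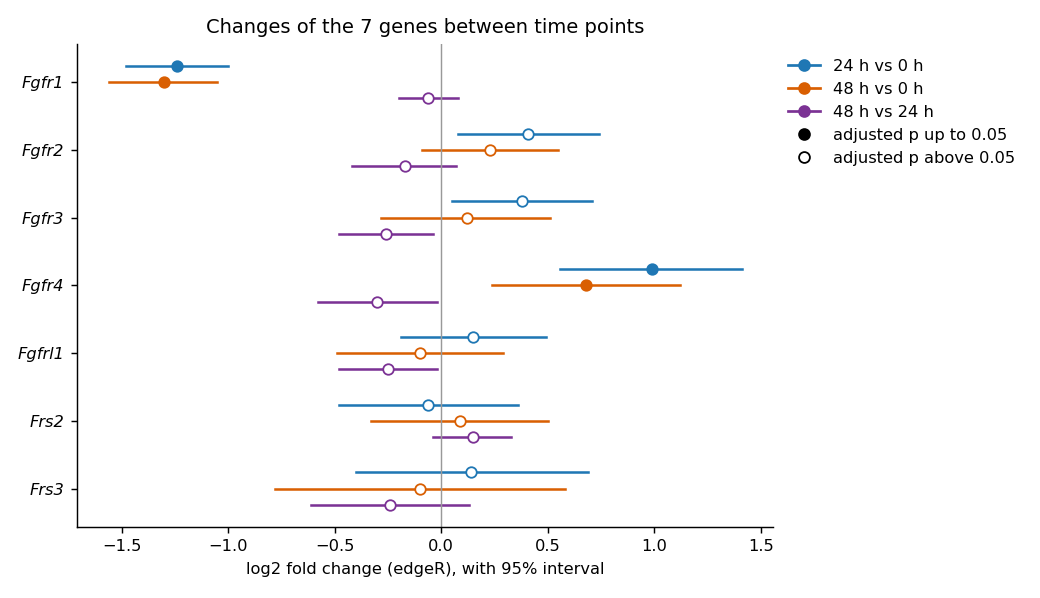
Log2 fold change of each of the 7 genes in 3 comparisons, from edgeR, with 95% intervals, filled where the adjusted p was up to 0.05. Fgfr1 lies at -1.24 and -1.30 against 0 h and Fgfr4 at 0.99 and 0.68, and the intervals of Frs2 and Frs3 include 0 in all 3 comparisons.

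Levels of different genes were compared per kilobase of their exons. At 0 h Fgfr1 led the family at 30.6 ± 2.62 CPM per kb (SD, n = 3), above Fgfrl1 at 14.1 ± 2.32, Frs2 at 8.43 ± 1.90, Frs3 at 4.64 ± 1.46, Fgfr3 at 3.73 ± 0.632, Fgfr4 at 1.16 ± 0.185 and Fgfr2 at 1.05 ± 0.051 CPM per kb. The libraries of Frs3 and Fgfr3 overlapped, as did those of Fgfr4 and Fgfr2, and no other neighbours in this order did. At 24 h Fgfr1 stood at 12.8 ± 0.093 CPM per kb and Fgfrl1 at 15.5 ± 0.831, and at 48 h at 12.4 ± 0.656 and 13.1 ± 1.88, where their libraries overlapped. Which of the 2 leads after 0 h depends on the length used. Per kilobase of the longest transcript, which for Fgfr1 is 5041 bases against 9875 bases for all its exons, Fgfr1 led at 25.1 ± 0.182 CPM per kb at 24 h and Fgfrl1 stood at 18.5 ± 0.993. The order of Fgfr2 and Fgfr4 also turned with the length at each time, and that of Frs3 and Fgfr3 at 24 h and 48 h.

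Among the 4 kinase receptors, Fgfr1 made up 83.7% ± 0.954 (SD, n = 3) of the summed level per kilobase in the 0 h cells, 60.2% ± 0.499 after 24 h and 63.5% ± 1.33 after 48 h. Its share lay at 82.7% to 84.6% in the 0 h libraries and at 59.8% to 64.9% in the later ones. Fgfr3 took 10.2% ± 0.95, 22.6% ± 0.312 and 20.6% ± 1.48, Fgfr4 3.20% ± 0.612, 10.7% ± 0.292 and 9.57% ± 0.576, and Fgfr2 2.90% ± 0.362, 6.52% ± 0.526 and 6.34% ± 0.164 at the 3 times. The sum itself was 36.5 ± 3.13 CPM per kb in the 0 h cells, 21.3 ± 0.0877 in the 24 h cells and 19.5 ± 1.33 in the 48 h cells. With the longest transcript as length the sum was 69.8 ± 5.99, 38.8 ± 0.177 and 35.9 ± 2.45 CPM per kb, and Fgfr1 held 85.7%, 64.5% and 67.5% of it. Fgfr4 then held 1.78%, 6.26% and 5.54%, below Fgfr2 with 3.54%, 8.32% and 8.03%, so the order of these 2 shares depends on the length. The ratio of Frs2 to Frs3 per kilobase ranged from 1.16 to 3.41 among the 0 h libraries, which enclosed the 24 h (1.48 to 1.71) and 48 h values (1.5 to 2.94).

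**Figure D4:**
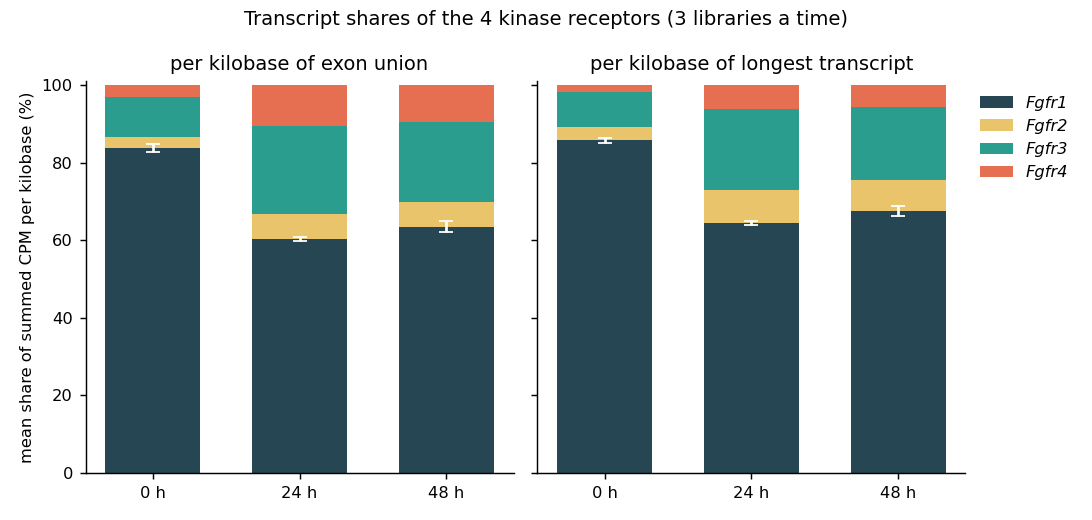
Mean share of each kinase receptor in the summed CPM per kilobase of Fgfr1 to Fgfr4 at each time, with all exons (left) or the longest transcript (right) as gene length and error bars of 1 SD of the Fgfr1 share over 3 libraries. Fgfr1 goes from 83.7% at 0 h to 60.2% at 24 h with all exons, and from 85.7% to 64.5% with the longest transcript.

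Among 58 receptor tyrosine kinases, Fgfr1 ranked 5 at 0 h by CPM per kb, behind Ret (95.2), Ptk7 (86.9), Epha2 (86.0) and Ryk (41.2), and 8 at 24 h and at 48 h. Fgfr3 ranked 23, 18 and 19 at the 3 times, Fgfr4 30, 25 and 25, and Fgfr2 31, 30 and 29. The genes whose level followed that of Fgfr1 most closely over the 9 libraries, of 10347 genes searched, were Pfkm, the muscle form of phosphofructokinase (Pearson r of log2 CPM 0.998), Chn2, a GTPase-activating protein for RAC (0.998), and Slc9a3r1, a scaffold of membrane transporters (0.997). An r above 0.95 was reached by 638 genes, and the 9 points fall into 3 time groups. Those closest to Fgfr4 were Frmd5 (0.994), Baz1b (0.986) and Slx1b (0.985), with 79 genes above 0.95.

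The FGF genes moved in both directions, and amounts given for these and the next genes are log2 fold changes at 24 h and then at 48 h. Of 22 FGF genes, 13 passed the filter at 24 h, and 5 were called higher and 5 lower, with a median log2 fold change of -0.23 beside 0.01 over all genes. At 48 h 5 of 13 were called higher and 6 lower (median -0.82, beside 0.02 over all genes). Over all genes tested, 25.5% were called at 24 h and 31.6% at 48 h. Fgf9, a ligand known for its role in the fetal testis, had a 0 h level of 29.6 ± 2.36 CPM (SD, n = 3), a 24 h level of 4.19 ± 0.766 and a 48 h level of 2.95 ± 0.339, and fell by 2.80 and 3.32 on the log2 scale (adjusted p = 5.7e-05 and 1.5e-05 in edgeR). Fgf3 fell by 2.31 and 3.48, from 19.1 ± 4.15 to 1.70 ± 0.116 CPM at 48 h. Fgf2, the ligand supplied in the 0 h medium, rose by 1.51 and 2.02, from 1.80 ± 0.879 to 7.27 ± 1.00 CPM at 48 h. Fgf13, which stays inside the cell and is not thought to act through these receptors, rose by 1.31 and 1.52. The 10 calls of 24 h went to 6 without 0 h replicate 2, 24 h replicate 2 or 24 h replicate 3, and the rise of Fgf2 at 24 h was lost without 0 h replicate 2 or any 24 h library (adjusted p up to 0.072). With at least 10 counts required in every library, which removes the FGF genes with low counts, 5 were called at each time.

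Fgf7 and Fgf10, ligands known from mesenchymal cells, were singled out after their values were seen. Fgf7 rose at 24 h (log2 fold change 2.93, adjusted p = 0.0162 in edgeR) and 48 h (4.05, adjusted p = 0.000772), from 0.278 to 4.59 CPM at 48 h. Its 24 h call was lost without 0 h replicate 2, 24 h replicate 2 or 24 h replicate 3 (adjusted p up to 0.0639). Fgf10 rose at 48 h (3.02, adjusted p = 0.00174), from 0.407 to 3.28 CPM, and stood at 0.754 CPM at 24 h (adjusted p = 0.206). Both rose with the summed stromal markers, and the part of somatic cells in these values was not tested. Fgf2 above, and Flrt2 and Gpc6 below, also rose over these times, and the part of somatic cells in them was not tested either.

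Of the 8 co-receptors and binding proteins, 5 passed the filter at 24 h (1 higher, 2 lower) and 7 at 48 h (2 higher, 3 lower), beside 25.5% and 31.6% of all genes called. Il17rd, also called Sef, an inhibitor of FGF receptor signaling, had levels of 424 ± 15.9, 70.1 ± 5.59 and 73.1 ± 2.20 CPM at the 3 times, and fell by 2.58 and 2.53 on the log2 scale (adjusted p = 1.57e-05 and 8.48e-06 in edgeR). Flrt2, a membrane protein that binds FGF receptors, rose by 1.06 and 1.42. Kl, the klotho protein that serves FGF23, was called lower at both times, with 28 to 36 counts in the 0 h libraries, 0 or 1 at 24 h and 0 to 3 at 48 h. Klb, a partner of Fgfr4, fell by 1.11 at 48 h (adjusted p = 0.0235 in edgeR), from 1.61 to 0.742 CPM. Flrt3 was called higher at 48 h, with 0 to 2 counts in the 0 h libraries and 19 to 32 at 48 h. The call of Flrt2 at 24 h was lost without 0 h replicate 2 or any 24 h library (adjusted p up to 0.0704), and that of Klb without 0 h replicate 1 or any 48 h library (adjusted p up to 0.0973). The call of Klb was also lost with no expression filter.

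Heparan sulfate genes moved in both directions. Of 26 tested genes of its synthesis and its carrier proteins, 7 rose and 5 fell at 24 h, and 7 rose and 4 fell at 48 h, beside 25.5% and 31.6% of all genes called. The medians were 0.10 and 0.04, beside 0.01 and 0.02 over all genes. Hs3st3b1 and Hs3st3a1, which add the rare sulfate at position 3 of glucosamine, both fell. Hs3st3b1 had levels of 210 ± 7.99, 7.22 ± 1.17 and 4.06 ± 0.305 CPM at the 3 times, 28.7-fold and 51.6-fold lower (adjusted p = 7.42e-06 and 1.92e-06 in edgeR). Hs3st3a1 was 13.2-fold and 13.1-fold lower. The carriers Gpc6 (log2 fold change 1.80) and Sdc3 (1.72) rose at 24 h, and Gpc6 (2.19) and the sulfotransferase Hs6st2 (1.57) at 48 h. The 12 calls of 24 h went to 6 without 0 h replicate 2 or 24 h replicate 2 and to 7 without 24 h replicate 1 or 3, and the 4 genes named were still called.

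Of 26 genes that relay the signal below the receptors, 1 rose and 5 fell at 24 h and 2 rose and 5 fell at 48 h, with medians of -0.04 and -0.20. These calls stand beside 25.5% and 31.6% of all genes and all-gene medians of 0.01 and 0.02, and the shares lie near that background. Sos2, an exchange factor of RAS, fell by 1.28 and Pik3ca, a catalytic subunit of PI3-kinase, by 0.99 at 24 h. Map2k1, which encodes the ERK kinase MEK1, fell by 0.69 at 48 h, while Map2k2, which encodes MEK2, rose by 0.55 and 0.58. Stat3, a transcription factor, fell by 0.86 at 48 h. The count for 24 h rests on single libraries, with 0 calls without 24 h replicate 1, 1 without 0 h replicate 2, 24 h replicate 2 or 24 h replicate 3, and 9 without 0 h replicate 3. DESeq2 called 6 of these genes at 24 h. For 48 h, 3 calls were made without 0 h replicate 2, 48 h replicate 1 or 48 h replicate 2. The GC and length offsets gave 9 calls at 24 h and 15 at 48 h. The share of all genes called with these offsets is not given here, so these counts have no matched background. The 48 h call of Map2k2 was lost without 0 h replicate 2 or any 48 h library (adjusted p up to 0.0939), and Stat3 and Map2k1 were called at 48 h in every alternative.

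All 11 tested ERK feedback genes and ETS factors fell at 24 h and at 48 h (medians -3.48 and -3.52), a list known from earlier results of these data. Etv5 had levels of 524 ± 37.0, 11.3 ± 1.01 and 7.78 ± 0.452 CPM at the 3 times, and Etv4 was 26.3-fold lower at 48 h (adjusted p = 1.1e-05 in edgeR). Spry4 fell by 6.24 and 6.12, Dusp6 by 5.72 and 5.87, and Dusp4 by 4.09 at 24 h. Between 24 h and 48 h, 5 of the 11 were called lower and 0 higher, and leaving out 1 library gave 3 to 5 calls. Over all genes, 25.5% were called at 24 h, 31.6% at 48 h and 21.3% between 24 h and 48 h.

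FRS2 also binds receptors of other ligands, and among these Ret fell at each time. Of 5 such receptors tested at 24 h, 1 was called higher and 1, Ret, lower (median 0.46, beside 0.01 over all genes). Of 4 tested at 48 h, again 1 was called higher and 1, Ret, lower (median 0.03, beside 0.02 over all genes). Ret, the signaling receptor for GDNF, had levels of 644 ± 65.6, 47.1 ± 0.852 and 34.4 ± 3.20 CPM at the 3 times. Of 49 other receptor tyrosine kinases tested at 24 h, 15 rose and 15 fell, and of 46 at 48 h, 12 rose and 18 fell. These calls stand beside 25.5% and 31.6% of all genes called. The medians were 0.11 and -0.05, beside 0.01 and 0.02 over all genes. Kit, the receptor of differentiating spermatogonia, had levels of 8.48 ± 1.26, 568 ± 34.6 and 330 ± 7.67 CPM. Epha2 and Flt1 fell by 3.57 and 3.28 at 24 h.

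Splicing of the third immunoglobulin loop sets which ligands Fgfr1, Fgfr2 and Fgfr3 bind, and counts per gene do not separate the forms. Esrp1, a splicing factor known to favour the epithelial form of Fgfr2, fell by 2.84 and 3.19 (adjusted p = 1.57e-05 and 1.11e-05 in edgeR), with levels of 201 ± 18.9, 27.9 ± 1.21 and 22.1 ± 2.17 CPM at the 3 times. Rbfox2, another regulator of this choice, fell by 0.48 at 24 h, a call lost without 0 h replicate 2 or any 24 h library (adjusted p up to 0.0854). Of the 4 regulators tested, 2 fell at 24 h and 1 at 48 h, and 0 rose in edgeR. Over all genes, 25.5% and 31.6% were called.

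**Figure D5:**
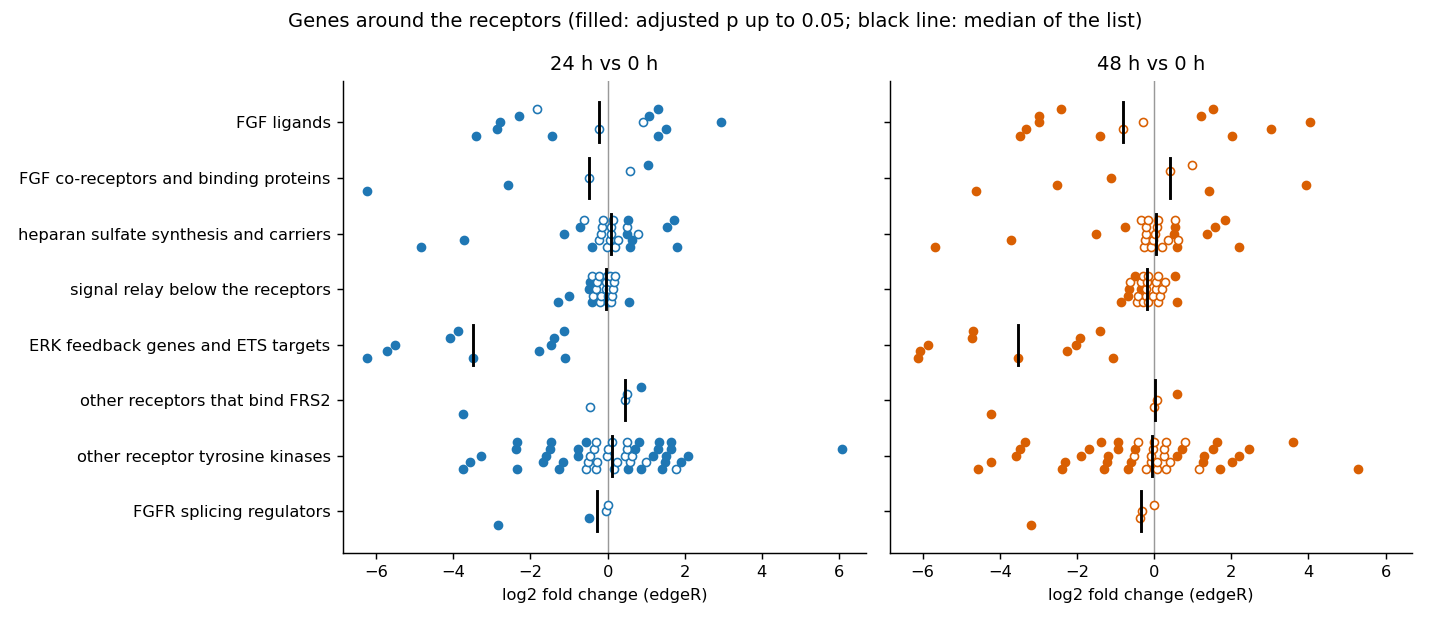
Log2 fold change from edgeR of each tested gene in 8 lists around the receptors, at 24 h (left) and 48 h (right) against 0 h, filled where the adjusted p was up to 0.05, with a black line at the median of a list. All 11 ERK feedback genes and ETS factors, drawn under the name ETS targets, lie below 0, with medians of -3.48 and -3.52. The relay genes lie near 0 (-0.04 and -0.20). Fitted values of genes with 3 counts or fewer in a group, such as Kl, depend on the prior count.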

How the data were processed

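The authors purified poly-A RNA and sequenced it on an Illumina instrument. The deposited values are raw counts of reads per Ensembl gene, which the authors made with fastp, HISAT2 and featureCounts on GRCm38, per the submitters' processing notes. Versions and the strand setting are not given in the sources used here.

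Symbols and lengths came from GENCODE M21, which held 45229 identifiers. The remaining 849 took at most 0.121% of a library. Each comparison used its 6 libraries, filterByExpr, TMM and edgeR 4.0.16 in R 4.3.3 (quasi-likelihood, two-sided), with Benjamini-Hochberg adjustment and a threshold of 0.05. CPM was TMM-normalized over 9 libraries. Likeness between genes was Pearson's r of log2 CPM with a prior count of 2 among genes of at least 10 CPM. Windows were matched with BLAST 2.17.0.

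Named genes are the 7 members, the 4 largest called changes of at least 5 CPM in each list, and every called gene of a list with at most 5, except 2 that are not reported here. The members and lists were chosen with earlier results of these data known. Alternatives were DESeq2 1.42.0, other scalings and filters, 1 fit of 9 libraries, a replicate block, offsets for GC and length, and leaving out each library. Marker lists covered germ, stromal, Sertoli, myoid, Leydig, endothelial and macrophage cells. Figures were drawn with matplotlib 3.10.9. The single-cell data and proteomics were not analysed here.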

Additional observations from a re-analysis of the deposited data

How the results depend on the processing

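The falls of Fgfr1 at 24 h and 48 h and the rise of Fgfr4 at 24 h were called under every alternative, with log2 fold changes of -1.28 to -1.14, -1.36 to -1.20 and 0.92 to 1.11 over the fits that left out 1 library. Members called at 24 h went from 2 to 4 with library size alone and with GC and length offsets, where Fgfr2 and Fgfr3 joined. The shares of all genes called under these settings are not given here. Fgfr2 also joined at 24 h with at least 10 counts in every library (log2 fold change 0.46, adjusted p = 0.0468 in edgeR). It joined as well with all 9 libraries in 1 fit (0.4, adjusted p = 0.0291). At 48 h Fgfr3 joined with GC and length offsets (0.35, adjusted p = 0.0244). Members called at 48 h went from 2 to 1 with no expression filter, where Fgfr4 was lost. The cause was not tested. Leaving out 1 library gave 2 to 3 called members at 24 h, 1 to 2 at 48 h and 0 to 3 between 24 h and 48 h. Over all genes it gave 2607 to 6023, 3471 to 7116 and 1857 to 4356 calls. With all 9 libraries in 1 fit, 1043 genes were called between 24 h and 48 h in place of 3732.

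The replicate numbers did not pair the samples: correlations of same-numbered deviations from the group means were -0.261, 0.0178 and -0.0912 between 24 h and 0 h, 0.0845, 0.196 and -0.28 between 48 h and 0 h, and 0.00112, -0.0575 and 0.0991 between 48 h and 24 h. With the replicate block, members called stayed at 2 at 24 h and went to 1 at 48 h, where Fgfr4 was lost (adjusted p = 0.0754 in edgeR). Calls of other genes lost with the block included Fgf7, Pik3ca and Map2k2 at 24 h and Klb and Map2k2 at 48 h. With the block and the GC and length offsets together, 4 members were called at 24 h.

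Directions turned only for members that were not called in the main comparison. With library size alone, Frs2 stood at 0.06 at 24 h, and Fgfrl1 and Frs3 both at 0.01 at 48 h. With the offsets, the 48 h values were 0.18 for Fgfrl1, -0.06 for Frs2 and 0.14 for Frs3, and with the replicate block added 0.17, -0.06 and 0.14. Fgfr1 between 24 h and 48 h stood at 0.08 with the offsets, with and without the block. Leaving out 1 library gave -0.20 to 0.10 for Frs2 and -0.09 to 0.30 for Frs3 at 24 h, and -0.02 to 0.27 for Fgfr3, -0.23 to 0.02 for Fgfrl1, -0.06 to 0.24 for Frs2 and -0.34 to 0.08 for Frs3 at 48 h.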
